A study of Mus musculus with 6 samples.

Results

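The transcripts described here were the Ensembl-named RNAs in a table of array probes that the authors had selected as different between mouse liver tumours and normal liver. They were found by a rule on names, every distinct probe of the table whose name begins with ENSMUST, and numbered 609 of the 4197 distinct probes (14.5%). Each had a transcript name of its own, and the 609 probes filled 735 of the 4738 lines because 71 of them were listed on several lines. The table holds only probes that had already passed the authors' comparison, at least a 2-fold difference with a p-value of at most 0.05. A difference between the groups therefore chose the members, and their differences are given below as a description, without a test.

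The arrays compared Apcfl/fl liver with hepatocellular carcinoma (HCC; genotype APC fl/fl in the labels, 3 arrays) and Apc+/+ liver without HCC (APC +/+, healthy control, 3 arrays). All mice were on the C57Bl/6 background, and per the labels were kept for 12 months, until tumours had formed. The Apcfl/fl allele is hypomorphic, that is, it lowers the amount of Apc, and neither the labels nor the methods name a Cre for these mice that would limit this to one cell type. RNA came from whole liver tissue, was freed of rRNA, amplified with random primers, labelled with Cy3 and hybridised to a single-colour array of mouse long noncoding RNA (lncRNA) and mRNA probes.

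Apc is a scaffold of the complex that marks β-catenin for destruction, and its loss lets β-catenin enter the nucleus and switch on Wnt target genes, which in liver include enzymes of the hepatocytes around the central vein. An Ensembl transcript name stands for a single transcript form, and several such forms can belong to the same gene. Long noncoding RNAs are transcribed and spliced much as mRNAs are but are not translated into a known protein, and some act in the nucleus as scaffolds or guides of chromatin proteins. The table gives no gene, biotype, position or sequence beside these names, so neither the noncoding class of the 609 transcripts nor their host genes could be checked, and transcripts are called by their identifiers.

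The values were quantile-normalised log2 signals, on which a difference of 1 is a 2-fold difference. Different probes bind with different strength, so a signal is compared between samples and not between transcripts. The arrays of Apcfl/fl replicates 1 and 2 differed from each other by less than the technical noise: over 29685 single-spot probes the mean squared difference, in units of the scanner's own squared error, was 0.824 for this pair, against 15.8 for either of them with replicate 3 and 1.90 to 7.29 among the Apc+/+ arrays. They were counted as 1 sample through their mean, leaving n = 2 for Apcfl/fl HCC and n = 3 for Apc+/+ liver. Over the 523 of these probes that are among the 609 transcripts, the value was 0.556 for Apcfl/fl replicates 1 and 2. For Apc+/+ replicates 2 and 3 it was 1.13, close to the technical noise. Those liver arrays were kept as separate samples, and averaging them is given below as an alternative. Nothing in the labels says which arrays came from separate mice, so p-values measure only the spread between these samples. The scanner files placed the Apcfl/fl arrays and Apc+/+ replicate 1 in the first row of a slide and Apc+/+ replicates 2 and 3 in the second. Of 9 hepatocyte marker genes the table named 3, all lower in Apcfl/fl HCC (summed signal 22434 to 47307, against 98366 to 168240 in Apc+/+ liver). It named 3 of 7 leukocyte and macrophage genes, all higher (3763 to 9664 against 1405 to 2186), and 5 of 7 proliferation genes, all higher (5111 to 6569 against 405.1 to 518.8). The sums cover only the named genes, which the authors had selected as different, and genes not named are not shown to be unchanged. Of 15 Wnt target genes of liver the table named 5, all lower, and it named 1 of 3 endothelial and 1 of 7 stellate cell and fibroblast genes, both lower. From a list of 5 genes of fetal liver and HCC it named only Spp1, which was higher, and it named none of 4 cholangiocyte genes. The part of these cell types in the differences of the 609 transcripts was not tested, and in bulk tissue fewer cells of a type and less RNA per cell cannot be told apart.

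Of the 609 transcripts, 259 were higher in Apcfl/fl HCC and 350 were lower, that is, 42.5% higher. The other probes of the table were higher in 48.5% of cases, the mRNA probes in 57.3%, the lincRNA probes in 31.8% and the cDNA-named AK probes in 27.4%. Among the higher transcripts the median log2 difference was 1.42 (quartiles 1.16 and 2.04, range 0.87 to 9.97), a median fold of 2.68. Among the lower transcripts it was -1.46 (quartiles -1.78 and -1.17, range -6.07 to -0.88), a median fold of 2.74. Over all 45640 probes tested the median was 0.06, with 54.8% higher.

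The largest differences lay mostly on the higher side, in these transcripts and over all probes. A log2 difference of at least 2 was found for 68 higher and 62 lower transcripts, beside 2.01% and 1.44% of all probes tested. One of at least 3 was found for 31 and 11 (0.809% and 0.366% of all probes), and one of at least 4 for 11 and 3 (0.337% and 0.0898%). The typical spread within groups, the pooled SD of log2 values, had a median of 0.41 among the higher and 0.35 among the lower transcripts. The 3 arrays of one group lay above the 3 of the other for all 609 transcripts, beside 33.8% of all probes tested (17.4% higher and 16.4% lower in Apcfl/fl HCC).

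**Figure D1:**
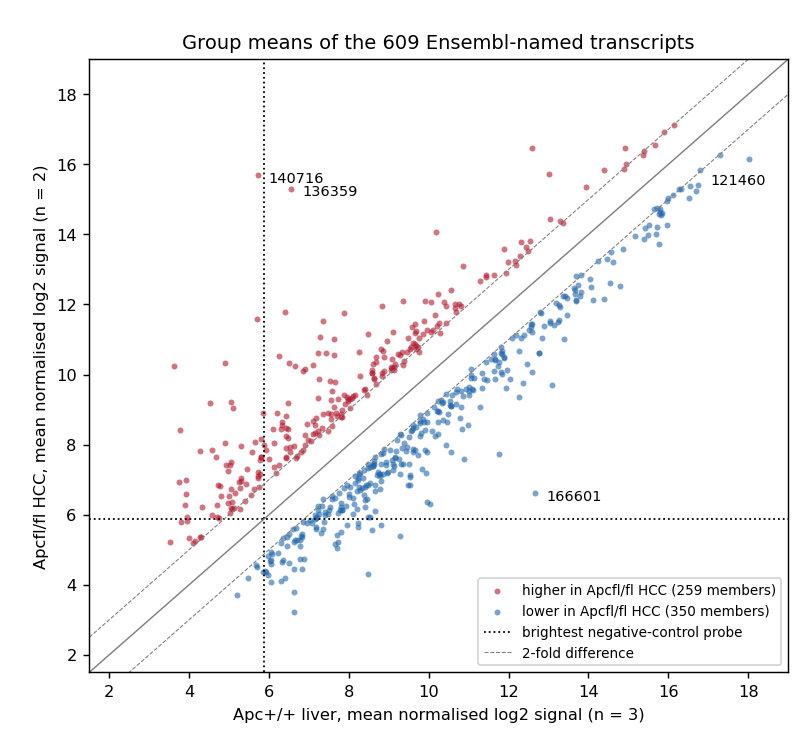
Mean normalised log2 signal of each of the 609 transcripts in Apc+/+ liver (horizontal axis, n = 3) and in Apcfl/fl HCC (vertical axis, n = 2), 259 higher in red and 350 lower in blue, with dotted lines at the brightest negative-control probe and dashed lines at a 2-fold difference. The empty band along the diagonal is left by the selection, and ENSMUST00000140716 and ENSMUST00000136359 stand apart at the top left.

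ENSMUST00000140716 had the largest difference of the set. Its log2 signal was 16.43, 16.32 and 15.00 in Apcfl/fl HCC (replicates 1 to 3, the order used throughout) and 5.92, 6.27 and 4.96 in Apc+/+ liver. The groups were far apart, with means of 15.69 ± 0.97 (SD, n = 2) and 5.72 ± 0.68 (SD, n = 3), a log2 difference of 9.97. The scanner flagged the probe well above background on all 6 arrays, a flag also set on 8.25% to 58.5% of the negative-control spots of an array. The liver mean lay below the brightest of the 20 negative-control probes, whose mean on the same scale was 5.88. The exact size of this difference thus rests on a liver signal no higher than that of the brightest probe made to bind nothing. With the liver mean raised to the level of that probe, a setting chosen after seeing the data, the difference was 9.81. It was still the largest of the set.

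ENSMUST00000136359 followed, with 16.03, 16.01 and 14.59 in Apcfl/fl HCC and 6.84, 6.50 and 6.34 in Apc+/+ liver. Means were 15.31 ± 1.01 (SD, n = 2) and 6.56 ± 0.26 (SD, n = 3), a log2 difference of 8.75. Here every liver value was above the highest value of the brightest negative-control probe on any array, 6.08. In both transcripts replicate 3 was the lowest Apcfl/fl array, by 1.37 and 1.42 below the mean of replicates 1 and 2 for ENSMUST00000140716 and ENSMUST00000136359, respectively.

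The 6 next largest rises by measured difference divided by how well the liver side was measured. ENSMUST00000119471 gave 10.54, 10.60 and 9.92 in Apcfl/fl HCC and 4.45, 3.54 and 2.84 in Apc+/+ liver, a difference of 6.64. ENSMUST00000149974 gave 12.68, 12.63 and 10.54 against 5.90, 5.19 and 5.98, a difference of 5.91. ENSMUST00000148141 gave 10.53, 10.58 and 10.10 against 5.77, 5.07 and 3.87, a difference of 5.42. In these 3 transcripts all Apcfl/fl arrays were high, and the liver means were below the brightest negative-control probe.

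ENSMUST00000130556 gave 11.50, 11.57 and 12.06 in Apcfl/fl HCC and 6.29, 6.82 and 6.12 in Apc+/+ liver, a difference of 5.39. It was the only one of these 6 with replicate 3 as the highest Apcfl/fl array, and the only one with its liver mean above the negative-control probes. ENSMUST00000152754 gave 10.82, 10.89 and 7.51 against 4.66, 4.37 and 4.53, a difference of 4.66, and its replicate 3 was about midway between the other Apcfl/fl arrays and the liver. ENSMUST00000141777 gave 8.88, 8.84 and 7.97 against 4.24, 2.39 and 4.69, a difference of 4.64, with a liver SD of 1.22 (n = 3), the widest spread among the 8 largest rises in liver.

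The order of these rises depends on liver signals near background. With group means raised to the level of the brightest negative-control probe, a setting chosen after seeing the data, the differences of ENSMUST00000119471, ENSMUST00000152754 and ENSMUST00000141777 came to 4.37, 3.30 and 2.54. ENSMUST00000122305 and ENSMUST00000170344, measured above that level in both groups, then ranked above ENSMUST00000152754 and ENSMUST00000141777 with differences of 4.29 and 4.17. With another background correction (normexp) the differences of ENSMUST00000119471, ENSMUST00000148141, ENSMUST00000152754 and ENSMUST00000141777 were 3.51, 3.33, 2.66 and 1.94, and those of ENSMUST00000140716 and ENSMUST00000136359 were 8.61 and 7.85.

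On the lower side ENSMUST00000166601 had the largest difference. Its signal was 7.10, 7.11 and 6.11 in Apcfl/fl HCC and 10.83, 13.53 and 13.66 in Apc+/+ liver, with means of 6.60 ± 0.70 (SD, n = 2) and 12.67 ± 1.60 (SD, n = 3) and a difference of -6.07. Apc+/+ replicate 1 lay well below the other liver arrays, and against that array alone the difference was -4.22. ENSMUST00000160550 showed the same arrangement, at 9.56, 9.50 and 9.89 against 11.17, 14.05 and 14.02, a difference of -3.37 over all liver arrays and of -1.46 against replicate 1 alone.

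Of the other large falls, 3 had both group means above the brightest negative-control probe. ENSMUST00000121449 gave 8.23, 8.30 and 7.21 in Apcfl/fl HCC and 12.34, 11.59 and 11.37 in Apc+/+ liver, a difference of -4.03. ENSMUST00000148383 gave 6.23, 6.12 and 6.41 against 9.76, 10.12 and 10.17, a difference of -3.73, with the tightest values of the 8 on both sides. ENSMUST00000134190 gave 5.63, 5.77 and 7.04 against 9.17, 10.41 and 10.28, a difference of -3.58. The groups were well apart in each of these transcripts.

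The remaining 3 of the 8 largest falls reached the negative-control probes in Apcfl/fl HCC. ENSMUST00000120973 gave 4.70, 4.86 and 3.84 in Apcfl/fl HCC and 9.15, 8.34 and 7.94 in Apc+/+ liver, a difference of -4.16. ENSMUST00000162504 gave 5.55, 5.76 and 5.10 against 9.95, 9.02 and 8.89, a difference of -3.91. ENSMUST00000166921 gave 3.76, 4.02 and 2.53 against 5.51, 7.24 and 7.09, a difference of -3.40, with Apc+/+ replicate 1 itself below the brightest negative-control probe. With normexp the differences of these 3 transcripts were -1.89, -2.26 and -1.01, and with group means raised to the level of that probe they were -2.60, -3.41 and -0.74.

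**Figure D2:**
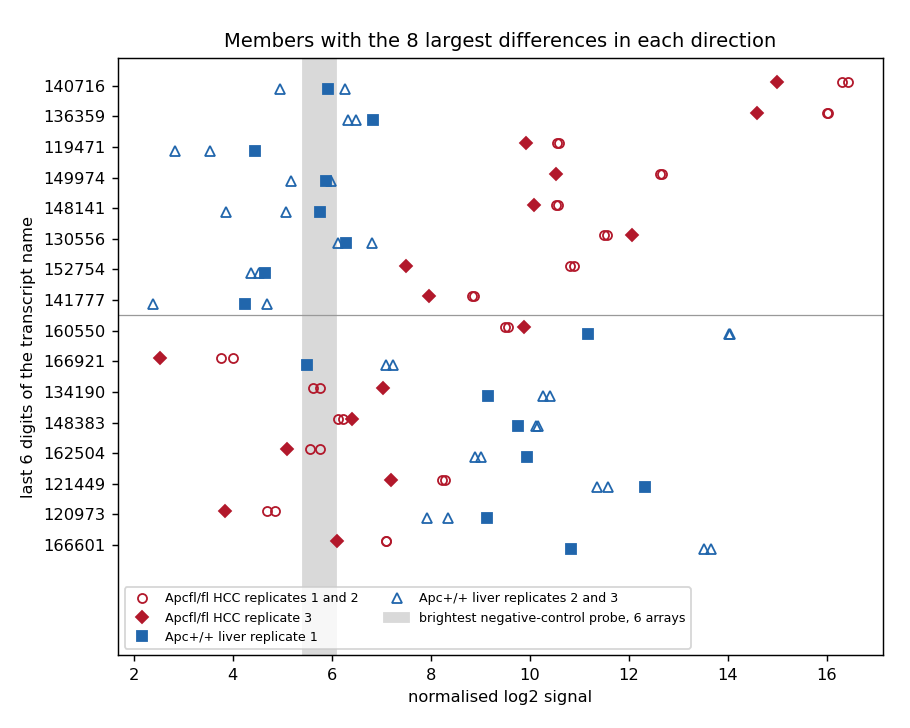
Normalised log2 signal on each array for the 8 transcripts with the largest rise (upper block) and the 8 with the largest fall (lower block), named by the last 6 digits of their identifiers, with Apcfl/fl HCC in red and Apc+/+ liver in blue. The grey band spans the brightest negative-control probe over the 6 arrays (5.42 to 6.08), in or below which most liver points of the largest rises lie, and the liver replicate 1 squares of 166601 and 160550 stand away from the triangles of replicates 2 and 3.

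The negative-control probes were used in the same way for the whole set, since a difference is measured on both sides only where both groups exceed them. Both group means were above the brightest of them in 475 transcripts (78.0%), 189 higher and 286 lower, beside 78.7% of the other probes of the table and 61.7% of all probes tested. The liver mean was not above it in 62 of the higher transcripts, and the Apcfl/fl mean was not above it in 59 of the lower transcripts. In the other 13, 8 higher and 5 lower, neither group was above it.

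Some transcripts went from the level of the negative-control probes in one group to a strong signal in the other. The share of all probes that do so is not given here, so nothing is read from these counts. The liver mean was not above the brightest negative-control probe while the Apcfl/fl mean exceeded it by at least 2 log2 units in 12 transcripts, and by at least 4 in 4 of these. The opposite, a liver mean at least 2 above it and an Apcfl/fl mean not above it, was found in 6 transcripts, and in none by at least 4. Where both groups were above it the median log2 difference was 1.34 among the higher and -1.43 among the lower transcripts, and 1.81 and -1.52 where one or both were not.

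The processed signals, before normalisation, gave a like picture array by array. Between 523 and 553 of the 609 transcripts were brighter than the brightest negative-control probe on a given array, and 448 were brighter on all 6. Against the 95th percentile of single negative-control spots, a higher level on every array, the range was 466 to 512. The scanner's own flag set 523 transcripts well above background on all 6 arrays and each of the others on at least 3, and no transcript lacked the flag on every array of a group. Of the 86 that were flagged on fewer arrays, 71 missed it only on Apc+/+ replicate 2, the array with the fewest flagged probes in all (50.8%, against 70.7% to 82.8% on the others). The flag was also set on 8.25% of the negative-control spots of that array and on 26.0% to 58.5% on the others. By itself it therefore does not show that a transcript was expressed.

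Among transcripts with both groups above the negative-control probes, several others had large and even differences (singled out after their values were seen). ENSMUST00000154992 gave 14.34, 14.33 and 13.82 in Apcfl/fl HCC and 10.07, 10.27 and 10.19 in Apc+/+ liver, a difference of 3.90. ENSMUST00000145417 gave 16.32, 16.33 and 16.60 against 12.60, 12.56 and 12.61, a difference of 3.87. ENSMUST00000170344 gave 11.81, 11.81 and 11.25 against 7.75, 7.13 and 7.19, a difference of 4.17. In all 3 the spread within each group was small beside the gap between the groups.

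Most of the brightest transcripts had differences near 2-fold. Of the 4 brightest that were higher, ENSMUST00000118350 gave 16.88, 16.99 and 16.93 in Apcfl/fl HCC and 16.28, 15.78 and 15.60 in Apc+/+ liver, a difference of 1.05. ENSMUST00000168078 and ENSMUST00000004569 had differences of 0.99 and 0.90, and that of ENSMUST00000117405 lay between those of ENSMUST00000118350 and ENSMUST00000168078. In each of the 4 the nearest arrays of the groups were well under 1 log2 unit apart, with Apc+/+ replicate 1 the highest liver array.

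Of the 4 brightest that were lower, ENSMUST00000121460 gave 15.78, 15.94 and 16.44 in Apcfl/fl HCC and 18.18, 18.00 and 17.88 in Apc+/+ liver, a difference of -1.87 between means of 16.15 ± 0.41 (SD, n = 2) and 18.02 ± 0.15 (SD, n = 3). ENSMUST00000170703 gave 15.29, 15.30 and 15.52 against 17.21, 16.51 and 16.51, a difference of -1.34. ENSMUST00000119359 and ENSMUST00000022260 had differences of -1.04 and -0.97, which became -0.63 and -0.53 when arrays were scaled to their 75th percentile. In all 4, Apcfl/fl replicate 3 was the Apcfl/fl array nearest to the liver values.

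At the limit of the selection stood members with almost exactly a 2-fold difference over the 6 arrays. ENSMUST00000121232 gave 6.80, 6.27 and 6.57 in Apcfl/fl HCC and 5.73, 5.17 and 5.73 in Apc+/+ liver, a difference of 1.01 with a liver mean below the brightest negative-control probe, and ENSMUST00000122185 had a difference of 0.95. ENSMUST00000120646 gave 14.69, 14.58 and 14.87 against 15.31, 15.91 and 15.92, a difference of -0.96, and ENSMUST00000161177 had one of -1.05 with an Apcfl/fl mean below that probe. With normexp ENSMUST00000121232 and ENSMUST00000161177 differed by 0.43 and -0.52, and with scaling to the 75th percentile ENSMUST00000120646 differed by -0.59. With Apcfl/fl replicates 1 and 2 counted as 1 sample, 24 higher and 16 lower transcripts came to under 2-fold.

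The spread among the Apcfl/fl arrays came almost entirely from replicate 3. The absolute log2 difference between replicates 1 and 2 had a median of 0.087, and 1 transcript (ENSMUST00000151812) was over 2-fold apart. Between replicate 3 and the mean of those arrays the median was 0.50, and 122 transcripts were over 2-fold apart. Of the higher transcripts, replicate 3 was at least 2-fold below in 52 and above in 13, and of the lower transcripts it was at least 2-fold above in 43 and below in 14. The other probes of the table had the same arrangement, with 378 below and 133 above among the higher and 264 above and 91 below among the lower.

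Counting gaps of any size, replicate 3 was nearer the liver than replicates 1 and 2 in 59.1% of the higher and 52.0% of the lower transcripts, beside 64.4% and 57.4% of the other probes of the table. Taken alone, both replicate 3 and the mean of replicates 1 and 2 were at least 2-fold from the liver mean in 410 transcripts, 160 higher and 250 lower, beside 9.08% of all probes tested (4.66% higher, 4.42% lower). Replicate 3 alone was under 2-fold in 143 and the mean of replicates 1 and 2 alone in 56, beside 11.1% and 9.12% of all probes. The selection used the same values, so nothing is read from these counts. ENSMUST00000160622 had one of the widest gaps, at 11.90, 11.86 and 8.58 in Apcfl/fl HCC and 6.76, 6.74 and 6.44 in Apc+/+ liver.

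In 106 of the higher and 168 of the lower transcripts replicate 3 was further from the liver than replicates 1 and 2. ENSMUST00000142822 gave 6.39, 6.33 and 8.94 in Apcfl/fl HCC and 5.24, 4.22 and 4.55 in Apc+/+ liver, with replicate 3 above the other Apcfl/fl arrays by 2.58. In the opposite case, ENSMUST00000156401 among the lower transcripts gave 8.89, 8.78 and 11.32 against 13.08, 12.29 and 12.36, its replicate 3 lying between the groups, 2.48 above the other Apcfl/fl arrays. Both were singled out after their values were seen, as was ENSMUST00000160622.

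**Figure D3:**
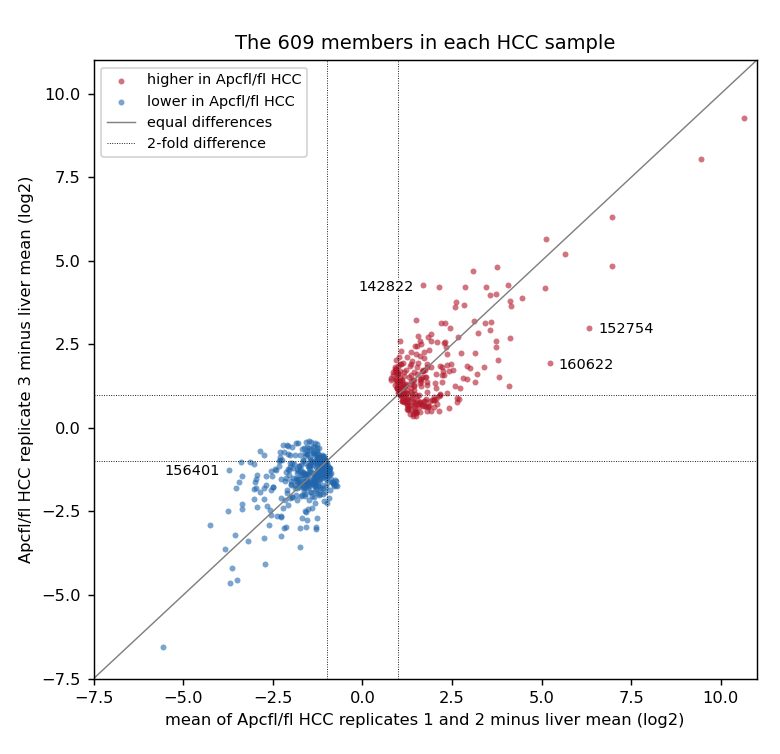
Log2 difference from the Apc+/+ liver mean for each of the 609 transcripts, for the mean of Apcfl/fl replicates 1 and 2 (horizontal axis) and for replicate 3 (vertical axis), with the line of equal differences and dotted lines at 2-fold. All points lie in the lower left or upper right quadrant, 143 of them inside the 2-fold lines for replicate 3 alone, and labelled points are among those farthest from the line.

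In the liver, replicates 2 and 3 were close (median absolute log2 difference 0.14, 14 transcripts over 2-fold apart), and replicate 1 was apart from their mean by a median of 0.38 and by over 2-fold in 61 transcripts (10.0%). Of the lower transcripts replicate 1 was at least 2-fold below in 30 and above in 9, and of the higher transcripts it was above in 17 and below in 5. ENSMUST00000144232, singled out after its values were seen, was the widest of the higher transcripts, at 9.68, 9.68 and 10.51 in Apcfl/fl HCC and 8.25, 6.20 and 6.07 in Apc+/+ liver. Within the first slide row, which holds replicate 1 as its only liver array, 462 transcripts differed at least 2-fold from the Apcfl/fl mean (beside 14.8% of all probes), with medians of 1.30 among the higher and -1.38 among the lower. Against replicates 2 and 3, which lay in the second row, 568 were at least 2-fold apart (beside 21.0% of all probes), with medians of 1.51 and -1.46. What the slide row adds to this cannot be told apart from what the mouse adds.

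With limma fitted to all 45640 probes on 5 samples, 94 of the 609 transcripts (44 higher, 50 lower) passed a Benjamini-Hochberg adjusted p below 0.05 with at least a 2-fold difference, beside 1.92% of all probes (1.03% higher, 0.896% lower). At an unadjusted p of at most 0.05 and 2-fold, 544 passed (226 higher, 318 lower), beside 11.2% of all probes (5.36% higher, 5.85% lower). With the 6 arrays as 6 samples the counts were 433 and 577, beside 7.54% and 13.4%. By limma no transcript passed the adjusted threshold when the slide row was a block, with Apc+/+ replicates 2 and 3 averaged, and without any one Apc+/+ replicate, where 353, 495 and 463 to 511 transcripts passed the unadjusted threshold. The same contrast had chosen the members, so these counts describe how the values behave under another error model and support nothing.

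A group of Ensembl-named probes that was not chosen by a difference between the groups could be set beside them. The scanner files name probes by the array's design, and 76 of these names begin with ENSMUST. Of these probes 4 were in the table (ENSMUST00000091289, ENSMUST00000100598, ENSMUST00000115875 and ENSMUST00000121460), and 66 of the 76 had enough signal to be tested.

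Most of the design-named transcripts differed little. Their median log2 difference was 0.10 (quartiles -0.30 and 0.48), against 0.06 over all probes, with 41 higher and 25 lower, and 45 (68.2%) were within 1.5-fold, against 66.1% of all probes. At an unadjusted p of at most 0.05 with at least 2-fold, limma on 5 samples passed 6 of the 66 (9.09%, 4 higher and 2 lower), beside 11.2% of all probes. After adjustment it passed ENSMUST00000121460 alone (1.52%, beside 1.92%), which is also one of the 609 and was lost in each of the fits in which none of those passed. The groups of arrays did not overlap in 21 (31.8%), beside 33.8% of all probes.

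Several of those outside the table lay near or beyond its 2-fold limit, on a normalisation made here that runs slightly below the deposited values. ENSMUST00000119623 gave 6.32, 6.44 and 7.57 in Apcfl/fl HCC and 5.74, 5.83 and 5.68 in Apc+/+ liver, a log2 difference of 1.23 (limma unadjusted p = 0.024, adjusted p = 0.193). ENSMUST00000171219 gave 11.30, 11.35 and 12.28 against 12.10, 13.04 and 12.92, a difference of -0.89 with overlapping groups (limma unadjusted p = 0.0974, adjusted p = 0.371). ENSMUST00000115902 gave 4.77, 4.67 and 5.84 against 3.35, 8.60 and 8.42, a difference of -1.51 (limma unadjusted p = 0.427, adjusted p = 0.706). Its groups overlapped, with Apc+/+ replicate 1 the lowest of all 6 arrays.

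**Figure D4:**
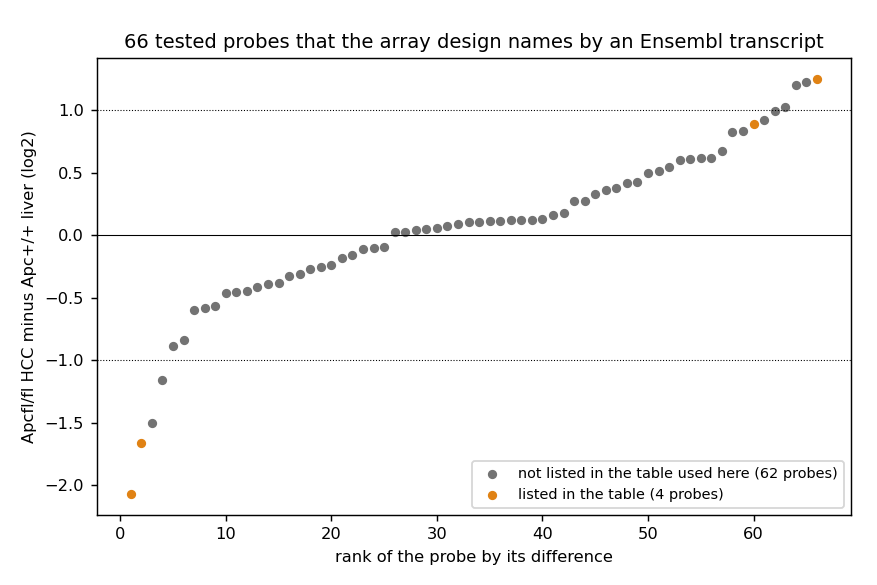
Log2 difference between Apcfl/fl HCC and Apc+/+ liver, from values normalised here, for the 66 tested probes that carry an Ensembl transcript name in the array's design, ordered by size, with the 4 that are also in the table in orange and dotted lines at 2-fold. 8 probes lie at or beyond the 2-fold lines, and the median is 0.10.

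The position of the probes on the design gave a wider view. Of the 609 probes 581 carried serial numbers from 9596 to 19564, a stretch in which every probe that the table names has an Ensembl name. The stretch holds 9957 probes, of which the 581 are 5.84%, and 7551 of the 9957 were tested. Their median log2 difference was 0.06, and 9.35% passed the unadjusted limma threshold with 2-fold and 1.39% the adjusted one, beside 11.2% and 1.92% of all probes. The names of the unlisted probes of the stretch were not analysed here, so that this share is for probes by number and not for known Ensembl transcripts.

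By identifier, the 320 transcripts numbered below 130000 were higher in Apcfl/fl HCC in 48.1% of cases and the 289 numbered from 130000 in 36.3%. The share did not fall steadily: it was 45.5% from 120000 to 130000, 31.1% from 130000 to 140000, 45.6% from 140000 to 150000 and 26.2% from 150000 to 160000. Both groups were above the negative-control probes in 84.7% of those numbered below 130000 and 70.6% of those from 130000, and 4.69% and 19.4% were listed on several lines. These splits were not tested, since the selection used the same values. The most lines, 7, were those of ENSMUST00000108749, at 9.59, 9.66 and 8.70 in Apcfl/fl HCC against 7.78, 7.95 and 7.96 in Apc+/+ liver, and of ENSMUST00000167752, at 9.46, 9.56 and 8.48 against 7.71, 8.07 and 7.70. In both the groups were apart, and replicate 3 was the lowest Apcfl/fl array.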

How the data were processed

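Arrays were extracted by the authors with Agilent Feature Extraction 11.0.1.1, and the deposited scanner files give background-subtracted intensity per spot. The deposited table gives log2 values, quantile normalised by the authors, only for probes they selected. On each array these rank as the scanner intensity does. Sequences, gene names and genome positions of the transcripts were not used here. Members and lists were chosen with earlier results of these data known. Transcripts named were 2 chosen in advance, the 8 largest rises and 8 largest falls, the 4 brightest and the 2 nearest to the 2-fold limit in each direction; all others were singled out after their values were seen, or for standing in the array's design or on the most lines. Descriptions use the deposited values. Fits used limma 3.58.1 (R 4.3.3; lmFit, eBayes) on processed intensity taken to log2 and quantile normalised over 59631 probes, for 45640 well above background on at least 3 arrays. The scripts were tested on simulated data. The 20 negative-control probes, placed on the same quantiles, gave the background limit. Symbols of marker genes came from RefSeq, for 2406 of 2482 accessions. Alternatives were background correction (normexp), filters, sample counting, slide row, replicate block, another moderation and leaving out each array. The number of arrays limits the precision.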

Additional observations from a re-analysis of the deposited data

How the results depend on the processing

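No transcript changed sign, which the lack of overlap between the groups in all 609 fixes wherever arrays are only left out or averaged. Of 78 recomputed summary values 62 moved by less than their limit. The adjusted count of 94 became 433 with 6 arrays as 6 samples, 208 with normexp, 259 with a filter on all 6 arrays, 19 without a filter, 235 with trend and robust moderation and 209 with the methods' t-test. By limma it was 0 with Apc+/+ replicates 2 and 3 averaged, 0 without Apcfl/fl replicates 1 and 2, and 0 with the slide row as a block, where 495, 411 and 353 passed at an unadjusted p of at most 0.05 with 2-fold. Leaving out 1 array gave 0 to 111: 0 without any one Apc+/+ replicate by limma (511, 495 and 463 unadjusted), 28 without Apcfl/fl replicate 3. A lone Apcfl/fl sample was assumed to vary as the other group does. The unadjusted count of 544 became 353 with normexp and 353 with the slide row, and the median of the lower transcripts -1.09 with normexp. Replicate numbers did not pair the arrays (correlations 0.06, -0.07 and 0.04), and with the replicate block on 6 arrays 111 and 577 passed. Of 364 values for named transcripts 46 moved and none reversed. Taking only transcripts above the negative-control probes, an alternative chosen after seeing the data, gave medians of 1.34 and -1.43. Shares over all probes are given only for the main fit on 5 samples and for the one on 6 arrays. Counts from the other fits are therefore not read as a result about these transcripts. The causes were not tested. Signals near the negative-control probes limit the size of 134 differences.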

Other observations

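In the stretch of serial numbers that holds 581 of the transcripts, 110 further probes passed the methods' t-test with a 2-fold difference on values normalised here and are not in the table used here. Only 30 of them were well above background on all 6 arrays. Listed or not, 659 of the 7551 tested probes of the stretch passed, and the share over all probes is not given for this test. The one with the largest difference, probe ASMM9PARTA013885, gave 14.09, 14.12 and 13.67 in Apcfl/fl HCC and 3.16, 2.96 and 1.64 in Apc+/+ liver, where it was not well above background on any array. Set against the lowest signal that was well above background on each liver array, its Apcfl/fl mean of 13.89 was 1061-fold higher. That level is below the brightest negative-control probe, whose mean on this scale was 5.50. The fold is therefore not a lower bound by the limit used for the other transcripts. Its transcript was not named in the sources used here, and it was singled out after its value was seen.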
